A study of Mus musculus with 98 samples.

Results

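The genes followed here through the mouse thymic stroma make the peptides that MHC class I presents, or the class I molecules themselves. Psmb11 encodes the catalytic subunit that defines the thymoproteasome, and Psmb8, Psmb9 and Psmb10 encode those of the immunoproteasome. Tap1 and Tap2 form the peptide transporter of the endoplasmic reticulum, B2m is the class I light chain, H2-K1 and H2-D1 are classical class I heavy chains, and Nlrc5 is the transactivator of class I genes. They were chosen by name, and these 10 were found among 39179 genes of the bulk count table, 22231 genes of the single-cell table over ages and 20760 genes of the newborn single-cell table. The series held 98 samples. The bulk table covered 84 libraries from wild-type mice, sorted as thymic epithelial cells (TEC) or as non-epithelial thymic stroma (NETS). At P0 (day of birth) these were cortical TEC (cTEC), medullary TEC (mTEC), CD31+ cells, Ly51+gp38- cells, gp38+CD26+ cells and gp38+CD26- cells, and at 4 weeks the same populations were joined by mTEChi and mTEClo, with 6 libraries in each of the 14 groups. The single-cell table over ages held wild-type CD45- EpCAM- cells, in 1 library for each of E12.5 and E13.5 (pooled litters) and from E16.5, P0 and 4 weeks with 2 libraries each. The newborn single-cell table held CD45- cells, TEC included, from 3 wild-type and 3 Tbx1+/-Crkl+/- P0 libraries, the latter heterozygous for the loss of Tbx1 and of Crkl in every cell. Subtypes of single cells were taken from the submitters' annotation.

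The proteasome cuts cytosolic proteins into peptides, and its barrel holds catalytic subunits of the beta5, beta1 and beta2 types. Psmb5, Psmb6 and Psmb7 fill these places in the constitutive particle, Psmb8, Psmb9 and Psmb10 replace them in the immunoproteasome, and in cTEC Psmb11 takes the beta5 place while Psmb9 and Psmb10 keep theirs. The thymoproteasome is known for making the peptides on which CD8 T cells are positively selected, and the immunoproteasome, the transporter and the class I chains are known targets of interferon signalling. Psmb11 is a known target of the TEC factor FOXN1.

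In the GRCm38 annotation Psmb9 (17:34181987-34187764, minus strand), Tap1 (17:34187553-34197225, plus), Psmb8 (17:34197721-34201454, plus) and Tap2 (17:34203527-34216321, plus) lay side by side within 34335 bases of the major histocompatibility complex, between H2-K1 (17:33996017-34000347, minus) and H2-D1 (17:35262730-35267499, plus). Psmb9 and Tap1 run in opposite directions and their gene models overlapped by 212 bases. Whether bulk reads were counted by strand is not given in the sources used here, so bulk reads in that overlap cannot be given to either gene with certainty. Psmb11 (14:54621433-54629556, plus) stood 3410 bases from Psmb5 (14:54614119-54618022, minus). Psmb10 (8:105935735-105938444, minus) and Nlrc5 (8:94434356-94527272, plus) lie on chromosome 8, and B2m (2:122147686-122153083, plus) on chromosome 2.

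The promoter letters shown are those of Psmb11 and Psmb8, of the stretch that Tap1 and Psmb9 share and of the class I chains, because later sections set these genes side by side over ages and cell types. They came from RefSeq promoters of build GRCm38.p6. The Psmb11, Psmb8 and Tap1 stretches end at the base before the RefSeq start site, and the shorter B2m, H2-K1 and H2-D1 stretches end 34, 11 and 57 bases before it. Capitals mark every match, on either strand, to the interferon-stimulated response element (paired GAAA 2 bases apart), TTCNNNGAA (the gamma-activated site), TGACG (the core of the X2 box), CCAAT (the core of the Y box), GACGC (the FOXN1 core) or a kappaB-like site (GGGA and CC with 4 bases between).
Psmb11, chr14:54625060-54625309, plus strand: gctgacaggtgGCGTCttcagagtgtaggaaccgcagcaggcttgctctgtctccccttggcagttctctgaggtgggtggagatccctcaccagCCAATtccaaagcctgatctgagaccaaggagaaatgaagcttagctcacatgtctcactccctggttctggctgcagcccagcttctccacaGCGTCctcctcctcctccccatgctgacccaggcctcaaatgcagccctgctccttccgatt
Psmb8, chr17:34197945-34198194, plus strand: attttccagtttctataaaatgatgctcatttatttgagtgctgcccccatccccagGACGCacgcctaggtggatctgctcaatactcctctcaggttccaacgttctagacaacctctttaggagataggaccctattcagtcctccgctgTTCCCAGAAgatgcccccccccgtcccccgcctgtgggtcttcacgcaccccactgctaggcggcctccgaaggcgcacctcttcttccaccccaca
Tap1 and Psmb9, chr17:34187331-34187555, plus strand: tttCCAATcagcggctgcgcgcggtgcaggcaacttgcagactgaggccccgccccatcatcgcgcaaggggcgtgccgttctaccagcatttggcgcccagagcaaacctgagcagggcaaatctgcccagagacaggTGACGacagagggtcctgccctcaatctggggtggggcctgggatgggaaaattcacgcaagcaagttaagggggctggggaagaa
B2m, chr2:122147524-122147653, plus strand: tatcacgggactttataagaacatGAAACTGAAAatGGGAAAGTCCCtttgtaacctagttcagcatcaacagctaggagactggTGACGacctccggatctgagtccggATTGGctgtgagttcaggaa
H2-K1, chr17:34000344-34000473, minus strand: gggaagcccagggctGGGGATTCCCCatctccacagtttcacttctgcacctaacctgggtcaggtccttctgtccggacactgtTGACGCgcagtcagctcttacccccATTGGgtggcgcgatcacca
H2-D1, chr17:35262908-35263037, plus strand: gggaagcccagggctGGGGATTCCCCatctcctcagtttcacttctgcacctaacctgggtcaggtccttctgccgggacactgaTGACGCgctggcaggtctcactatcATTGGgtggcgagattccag

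The Tap1 line is the whole of the 225 bases that separate the start sites of Psmb9 and Tap1, so both genes are read from it, in opposite directions. B2m, H2-K1 and H2-D1 each held the X2 core followed by the Y box core, the latter on the other strand, with 25 bases from start to start, a spacing chosen after these letters were seen, and this pair, with either core on either strand, was present in 36 of 32851 promoter windows (0.11%). Over the 130 bases shown H2-K1 and H2-D1 were identical at 114 positions (87.7%), and B2m and H2-K1 at 49 (37.7%). The FOXN1 core was found at 239 and 62 bases before the Psmb11 start site, at 193 bases before that of Psmb8 and in 27.2% of all windows. Single matches to the interferon-stimulated response element, the gamma-activated site, the X2 core, the Y box core and the kappaB-like site occurred in 3.44%, 8.3%, 20.8%, 37.4% and 20.7% of windows, and the X2 and FOXN1 cores overlap in H2-K1 and H2-D1. Each match describes letters in the window and nothing of binding. The window table held no entry for Tap2 or Nlrc5.

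The 83 bulk libraries kept for the fits held 5785352 to 15852166 gene counts each. 1 library labelled gp38+CD26+ at 4 weeks held 25702 counts and was left out, so that group had 5 libraries. CPM below is counts per 1000000 counts on genes. The sorted populations were checked against the markers of their labels. Summed cortical markers (Prss16, Ly75, Ccl25 and Tbata) reached 10442 to 19019 CPM in cTEC at P0 and at most 268 CPM in the NETS populations of that age. At 4 weeks they reached 21183 to 35597 CPM in cTEC and 443 to 2575 CPM in Ly51+gp38- cells, and mTEC markers in cTEC (876 to 5800 CPM) overlapped those in mTEC (3510 to 8332 CPM). Over both ages, endothelial markers reached at least 2137 CPM in CD31+ cells against at most 139.5 CPM elsewhere, mural markers at least 26215 CPM in Ly51+gp38- cells against at most 4263 CPM elsewhere, and fibroblast markers at least 22498 CPM in both gp38+ populations against at most 7947 CPM elsewhere. In single-cell data the age series had a median of 10005 to 14031 UMIs (unique molecules) per cell by library, and the newborn series 2391 to 4686. Between libraries, 0.43% of 36053 cell barcodes in the age series and 44 of 21407 in the newborn series were shared.

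In bulk cTEC Psmb8 rose the most of the members that passed. Psmb8 was at 7.24, 15.7 and 18.7 CPM (lowest, median and highest of 6 libraries) at P0 and at 212, 242 and 276 CPM at 4 weeks. The ages did not overlap, and Psmb8 rose by 4.08 on the log2 scale (SE 0.27, edgeR quasi-likelihood test with Benjamini-Hochberg adjustment over all genes, adjusted p = 1.37e-19). Psmb11 was at 194, 330 and 374 CPM at P0 and at 848, 1184 and 1627 CPM at 4 weeks, again with no overlap. Its fitted difference of 2.001 (SE 1.13) did not pass in the fit over all 14 groups (edgeR adjusted p = 0.306) and did pass when cTEC libraries alone were fitted (1.95, edgeR adjusted p = 1.77e-05). Psmb11 was at 0 in many NETS libraries of the fit over all groups, and the part of those libraries in its larger standard error was not tested. Psmb9 went from 73.6, 104 and 164 CPM to 199, 273 and 291 CPM and rose by 1.29 (SE 0.28, edgeR adjusted p = 0.000742), and Psmb10 went from 186.8, 242 and 443 CPM to 332, 429 and 456 CPM and rose by 0.61 (SE 0.19, edgeR adjusted p = 0.0275). The ages did not overlap for Psmb9 and overlapped for Psmb10, through 1 P0 library at 443 CPM.

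Of the 10 members, 7 rose with age in cTEC and none fell, where 10.0% of the 20417 genes tested changed in either direction. All 10 passed the filter on low counts. The members' median log2 difference was 1.63, against 0 over all genes.

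In mTEC Psmb8 was higher than in cTEC at both ages, and Psmb11 was lower. No mTEC library was at 0 for Psmb11 at P0, and 2 of 6 were at 4 weeks. Psmb8 in mTEC was at 137.2, 164 and 218 CPM at P0 and at 425, 609 and 1257 CPM at 4 weeks, without overlap, a rise of 2.04 (SE 0.25, edgeR adjusted p = 8.88e-09). The highest of these libraries, replicate 3, was also the shallowest kept library at 5785352 counts, and without it the rise was 1.71 (edgeR adjusted p = 5.17e-07). Psmb11 in mTEC was at 6.68, 9.33 and 28.2 CPM at P0 and at 0, 3.13 and 12.3 CPM at 4 weeks, which overlapped, and its difference of -1.62 did not pass (edgeR adjusted p = 0.588). In mTEC 5 of the 10 members rose and none fell, where 3.94% of genes changed: Psmb8, Psmb9 (1.44), Psmb10 (0.83), B2m and H2-K1. Psmb10 was the member whose call was lost without mTEC replicate 3 (0.60, edgeR adjusted p = 0.0679).

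**Figure D1:**
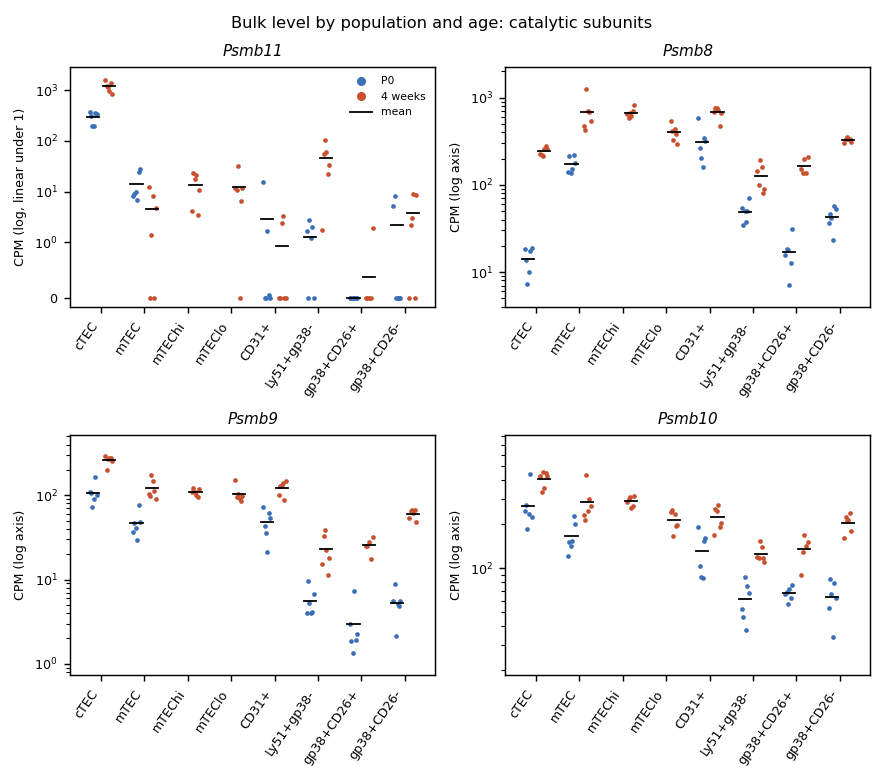
CPM of Psmb11, Psmb8, Psmb9 and Psmb10 in each bulk library (points) of 8 sorted populations at P0 (blue) and 4 weeks (red), with the mean of each group as a black bar. Psmb11 stood out in cTEC at both ages, and Psmb8 in cTEC moved from 7.24 to 18.7 CPM at P0 to 212 to 276 CPM at 4 weeks.

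Tested directly, the age difference of Psmb8 was larger in cTEC than in mTEC by 2.04 (SE 0.34, edgeR adjusted p = 5.73e-05). Bulk labels carry a prefix, TXCK or DFCK, whose meaning is not stated, with 3 libraries of each per group, and within them the value for Psmb8 was 2.24 (edgeR adjusted p = 0.00417) and 1.87 (edgeR adjusted p = 0.223). It was the only member of the 10 to pass this test, where 2.85% of genes passed. Fitted on cTEC and mTEC libraries alone, where 5.37% of genes passed, 5 members did, Psmb11 (3.71), H2-K1 (0.70), H2-D1 (0.85) and Tap2 (0.67) being the others.

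Other cell types' markers moved with age in sorted cTEC. Summed haematopoietic markers went from 21.9 to 42.6 CPM at P0 to 397 to 1776 CPM at 4 weeks (6 of 6 markers higher by the same test), mTEC markers from 106 to 364 CPM to 876 to 5800 CPM (4 of 5 higher), and erythroid markers from at most 1.01 CPM to 31.4 to 1271 CPM (5 of 5 higher). Dendritic and macrophage markers stayed at or below 18.2 CPM, with Itgax at 0 in all 12 cTEC libraries. Sorted mTEC at 4 weeks held 3510 to 8332 CPM of mTEC markers. Across the 6 cTEC libraries at 4 weeks the mTEC markers spanned 876 to 5800 CPM while Psmb8 spanned 212 to 276 CPM, and the library with 876 CPM was the one with 212. The sort took CD45- cells, which would remove most haematopoietic cells, and the part of other cells in the age difference of Psmb8 was not tested.

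Ratios of 2 genes were taken within each library, per kilobase of exon, and depend on depth only through a pseudocount of 0.5 counts, which matters where a gene is near 0. Each length was the union of all annotated exons (4791 bases for Psmb11, 3381 for Psmb8 and 899 for Psmb5), not that of a transcript. The absolute level of a ratio therefore depends on the annotation, while a difference between groups does not. Read per length, P0 cTEC held 62.3 CPM per kb of Psmb11, 4.21 of Psmb8 and 54.02 of Psmb5, the constitutive beta5 subunit, and 4-week cTEC held 249.96, 71.5 and 84.5. The log2 ratio of Psmb11 to Psmb8 in cTEC was 3.91 ± 0.18 (SD, n = 6) at P0 and 1.78 ± 0.42 at 4 weeks, or 15.05 and 3.44 times as many reads per kb for Psmb11. The ages did not overlap and differed by -2.13 (exact two-sided permutation test, p = 0.00216, the smallest that 6 against 6 libraries allow, adjusted p = 0.00308 over 37 ratio tests). Against Psmb5, Psmb11 went the other way, from 0.21 ± 0.31 to 1.54 ± 0.32, without overlap (difference 1.33, exact permutation test, adjusted p = 0.00308). So the thymoproteasome subunit gained on the constitutive subunit while the immunoproteasome subunit gained on both.

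The ratio of Psmb8 to Psmb5 differed between the ages in all 6 populations followed. It went from -3.70 ± 0.36 to -0.24 ± 0.19 in cTEC, from -0.23 ± 0.35 to 1.16 ± 0.37 in mTEC and from -3.55 ± 0.80 to -0.30 ± 0.19 in gp38+CD26+ cells. The other differences were 1.65 in gp38+CD26- cells, 1.59 in CD31+ cells and 1.31 in Ly51+gp38- cells (exact permutation tests, adjusted p = 0.00308 for each but the last, 0.0166). Only in Ly51+gp38- cells did the ages overlap. At P0 the ratio was 3.47 lower in cTEC than in mTEC and at 4 weeks 1.39 lower, both without overlap (exact permutation tests, adjusted p = 0.00308).

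The beta1 pair also differed with age in every population, and the beta2 pair in all but cTEC. The log2 ratio of Psmb9 to Psmb6 went from -2.51 ± 0.13 to -1.48 ± 0.15 in cTEC and from -7.42 ± 0.33 to -4.21 ± 0.43 in gp38+CD26+ cells, and it differed between the ages in all 6 populations by 0.90 to 3.21. Unlike Psmb8 to Psmb5, it was higher in cTEC than in mTEC at both ages, by 1.26 at P0 and 1.39 at 4 weeks (exact permutation tests, adjusted p = 0.00308). Psmb10 to Psmb7 was 2.58 ± 0.20 in cTEC at P0 and 2.74 ± 0.21 at 4 weeks, which overlapped and did not pass (exact permutation test, adjusted p = 0.231), while the other 5 populations differed by 0.34 to 1.05.

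**Figure D2:**
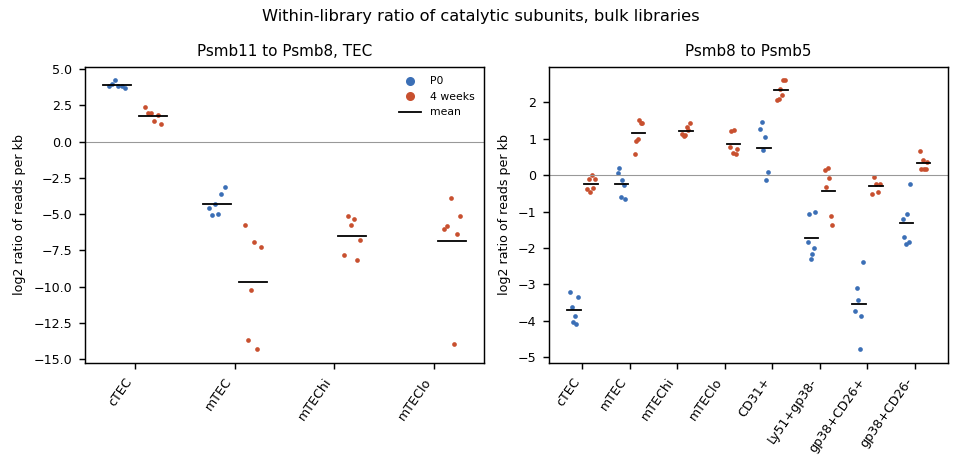
Left, log2 ratio of Psmb11 to Psmb8 in TEC populations, and right, log2 ratio of Psmb8 to Psmb5 in 8 populations, both from reads per kilobase within each bulk library (points; P0 blue, 4 weeks red, black bars the group means). In cTEC the first ratio went from a mean of 3.91 to 1.78 and the second from -3.70 to -0.24.

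Among NETS populations CD31+ cells already carried Psmb8 at birth, and it rose with age in all 4 populations. CD31+ cells were at 160.8, 291 and 578 CPM of Psmb8 at P0 and at 474, 708 and 759 CPM at 4 weeks, which overlapped, a rise of 1.10 (SE 0.24, edgeR adjusted p = 0.000992) that did not pass within the prefix TXCK or DFCK (0.84 and 1.40, edgeR adjusted p = 0.116 and 0.0698). In gp38+CD26+ cells it went from 7.17, 16.7 and 31.2 CPM to 136.1, 153 and 208 CPM (5 libraries), a rise of 3.28 (SE 0.27, edgeR adjusted p = 1.07e-15). In gp38+CD26- cells it went from 23.5, 44.0 and 56.9 CPM to 303, 333 and 356 CPM, a rise of 2.96 (SE 0.26, edgeR adjusted p = 5.61e-15), and neither gp38+ population overlapped between ages. Ly51+gp38- cells went from 34.9, 49.8 and 70.8 CPM to 80.1, 122.1 and 192.1 CPM, a rise of 1.38 (SE 0.25, edgeR adjusted p = 3.78e-05). In bulk samples, fewer cells of a type and less RNA per cell cannot be told apart.

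The members called with age in NETS all rose. They numbered 8 of 10 in CD31+ cells (10.4% of genes called), 8 in Ly51+gp38- cells (11.5%), 7 in gp38+CD26+ cells (9.55%) and 8 in gp38+CD26- cells (13.3%). Psmb8, Psmb9, Psmb10, Tap2, B2m, H2-K1 and H2-D1 passed in all 4. Within the prefix DFCK alone, only 1 member was called in CD31+ cells and 4 in Ly51+gp38- cells, while TXCK stayed closer to the full counts. Psmb9 rose most in gp38+CD26- cells (3.53, SE 0.31, edgeR adjusted p = 3.45e-15), from 2.11, 5.32 and 8.81 CPM to 48.3, 63.4 and 67.5 CPM.

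Psmb11 was scarce outside cTEC. In gp38+CD26+ cells at P0 it was at 0 in all 6 libraries, in CD31+ cells it was at 0 in 3 of 6 libraries at P0 and 4 of 6 at 4 weeks, and in gp38+CD26- cells it did not exceed 8.86 CPM. Ly51+gp38- cells at 4 weeks were the exception, at 1.71, 43.7 and 106.5 CPM after 0, 1.42 and 2.74 CPM at P0, which overlapped, a fitted rise of 5.22 (SE 1.34, edgeR adjusted p = 0.00565) that did not pass within either label prefix (edgeR adjusted p = 0.173 and 0.0900). Cortical markers moved there too, from 21.7 to 126 CPM to 443 to 2575 CPM (4 of 4 higher), TEC markers from 7.15 to 185.5 CPM to 268 to 1346 CPM (4 of 5 higher) and haematopoietic markers from at most 24.3 CPM to 80.2 to 314 CPM. Of the 10 other cortical genes listed, 9 rose in these cells. Ly51 is a surface marker of cTEC as well as of mural cells, the NETS populations were gated as EpCAM-, which would remove cTEC, and the part of cTEC in this difference was not tested.

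The class I chains rose with age nearly throughout, and both heavy chains rose most in the gp38+ populations. H2-K1 in gp38+CD26- cells went from 32.5, 43.03 and 68.3 CPM at P0 to 1184, 1471 and 1731 CPM at 4 weeks, a rise of 4.97 (SE 0.20, edgeR adjusted p = 7.49e-33). In gp38+CD26+ cells it went from 14.7, 22.4 and 34.4 CPM to 392, 527 and 769 CPM, a rise of 4.48 (SE 0.20, edgeR adjusted p = 3.6e-30), and Ly51+gp38- cells followed with 3.02. CD31+ cells started higher, at 429, 562 and 843 CPM, and reached 1766, 1877 and 2022 CPM, a rise of 1.65. No NETS population overlapped between ages for H2-K1. In TEC, cTEC went from 321, 386 and 453 CPM to 1057, 1264 and 1666 CPM (1.74) and mTEC, the highest at both ages among these 6 populations, from 1260, 1441 and 1504 CPM to 2392, 3033 and 3560 CPM (1.15), also without overlap.

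H2-D1 followed H2-K1. It rose by 4.40 in gp38+CD26+ cells, from 7.07, 153 and 290 CPM to 1976, 3425 and 4636 CPM, by 4.25 in gp38+CD26- cells, by 2.59 in Ly51+gp38- cells, by 1.38 in CD31+ cells and by 1.52 in cTEC. In mTEC it was at 5662, 6413 and 6976 CPM at P0 and at 8130, 10284 and 12397 CPM at 4 weeks, and the difference of 0.78 did not pass (edgeR adjusted p = 0.073). H2-K1, H2-D1 and the other heavy chains are close copies, and how the counting split their shared reads is not given in the sources used here, so the share of each is uncertain. B2m, which has no such copy, rose in all 6 populations, by 3.97 in gp38+CD26- cells (SE 0.20, edgeR adjusted p = 5.2e-27), from 270, 411 and 582 CPM to 4476, 7121 and 7722 CPM, and by 0.96 to 2.16 in the others. In CD31+ cells its call was lost with only those libraries fitted (0.92, edgeR adjusted p = 0.0554) and within DFCK (0.60, edgeR adjusted p = 0.387).

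Taken as means over populations, the age difference of the heavy chains was smaller in TEC than in NETS. The mean age difference of cTEC and mTEC minus that of the 4 NETS populations was -2.09 for H2-K1 (SE 0.15, edgeR adjusted p = 3.48e-18) and -2.004 for H2-D1 (SE 0.23, edgeR adjusted p = 6.9e-10). Psmb9 was also lower in this difference (-1.14, SE 0.24, edgeR adjusted p = 0.000665), and Psmb8 was higher (0.88, SE 0.21, edgeR adjusted p = 0.00335). Within the prefixes TXCK and DFCK, Psmb8 gave 0.99 and 0.76 (edgeR adjusted p = 0.0251 and 0.513), Psmb9 gave -0.97 and -1.36 (edgeR adjusted p = 0.105 and 0.0611), and H2-K1 and H2-D1 passed in both. These 4 were the members that passed, where 6.46% of genes did. B2m differed by 0.03 (SE 0.16), which did not pass. Single populations did not all follow the means. CD31+ cells rose by 1.65 for H2-K1 and 1.38 for H2-D1, less than cTEC (1.74 and 1.52) and more than mTEC (1.15 and 0.78). For Psmb8, cTEC rose by 4.08, while mTEC (2.04) rose less than gp38+CD26+ (3.28) and gp38+CD26- cells (2.96). CD31+ (1.10) and Ly51+gp38- cells (1.38) rose less than mTEC. Age differences of single TEC and NETS populations were not tested against each other.

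Of the transporter subunits, Tap2 rose by 1.52 in cTEC (SE 0.36, edgeR adjusted p = 0.00234), from 106, 144.2 and 177 CPM to 349, 413 and 484 CPM, and by 1.43 to 2.18 in the 4 NETS populations. Tap1 in cTEC was at 260, 331 and 414 CPM at P0 and 271, 356 and 472 CPM at 4 weeks (0.10, SE 0.24, edgeR adjusted p = 0.996), and it passed in CD31+ cells (0.87, edgeR adjusted p = 0.0131) and gp38+CD26- cells (1.36, edgeR adjusted p = 2.65e-05) alone. In CD31+ cells Tap1 passed within neither prefix (edgeR adjusted p = 0.234 and 0.179), and in gp38+CD26- cells it did not pass within DFCK (edgeR adjusted p = 0.0776). The difference between Tap1 and Tap2 was not itself tested. Nlrc5 was low throughout, with no group median above 23.96 CPM, and was at 0 in at least 1 library of most groups. It was at 0 in 4 of 6 cTEC libraries at P0 and at 0.14, 3.23 and 6.27 CPM at 4 weeks, and no age difference of Nlrc5 passed (edgeR adjusted p = 0.0628 in cTEC, 0.0639 in gp38+CD26- cells). In DESeq2 both of these passed (4.56, adjusted p = 0.0160, and 4.28, adjusted p = 0.0230).

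**Figure D3:**
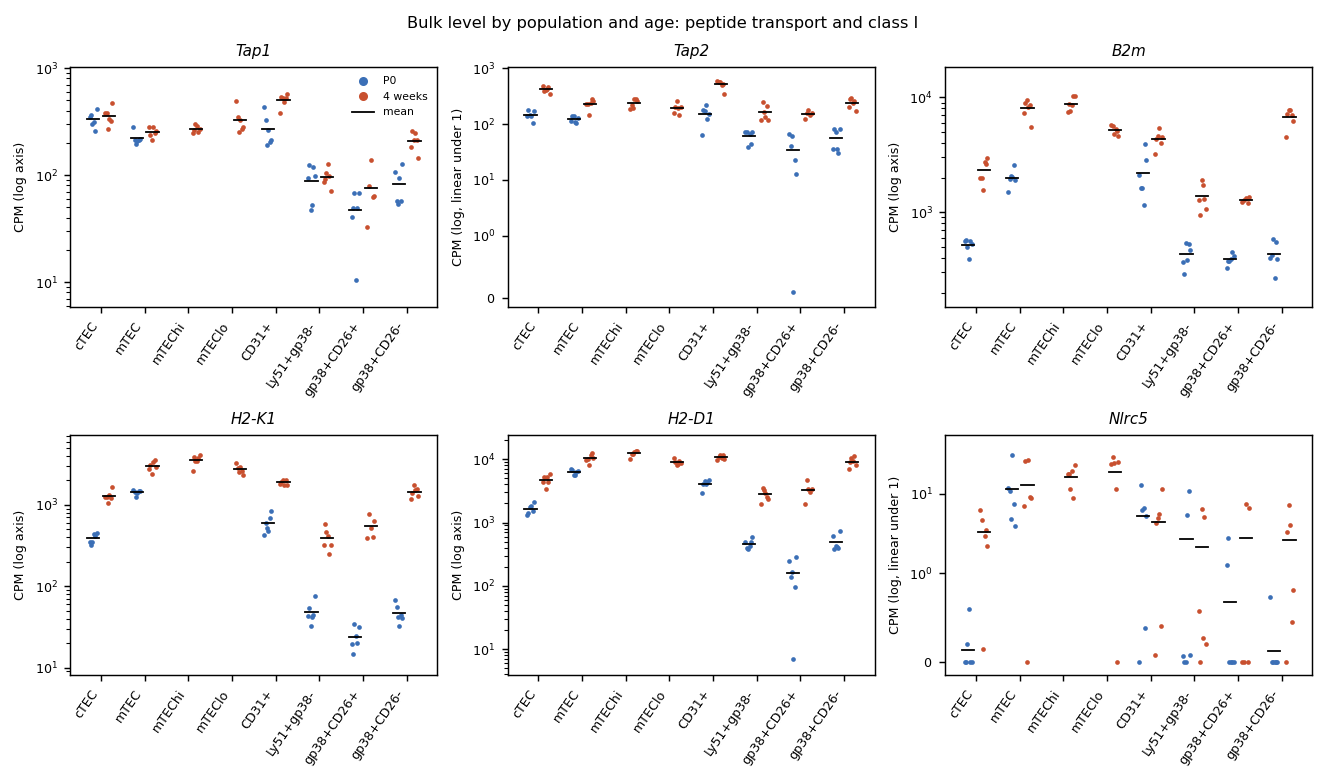
CPM of Tap1, Tap2, B2m, H2-K1, H2-D1 and Nlrc5 in each bulk library (points) of 8 sorted populations at P0 (blue) and 4 weeks (red), with group means as black bars. H2-K1 in gp38+CD26- cells moved from 32.5 to 68.3 CPM at P0 to 1184 to 1731 CPM at 4 weeks, and Tap1 in cTEC overlapped between ages.

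At each age the mean of cTEC and mTEC was above the mean of the 4 NETS populations for most members. Of 10 members, 8 were higher in TEC at P0, where 39.5% of genes differed, and 7 at 4 weeks, where 42.6% did, and none was lower. At P0 the differences were 6.90 for Psmb11 (SE 0.83, edgeR adjusted p = 1.36e-10), 3.27 for H2-K1, 3.105 for Psmb9, 2.37 for H2-D1, 1.44 for Psmb10, 1.44 for Tap1, 1.04 for Tap2 and 0.66 for B2m, set against a median of 0.37 over all genes. The fitted value for Psmb11 depends on the prior count, since gp38+CD26+ cells were at 0. Psmb8 did not pass at P0 (-0.24, SE 0.15, edgeR adjusted p = 0.212) and was higher in TEC at 4 weeks (0.63, SE 0.15, edgeR adjusted p = 0.00019). The median over all genes at 4 weeks was 0.48, near that value. At 4 weeks H2-K1 differed by 1.19, Psmb9 by 1.964 and Psmb11 by 4.73, and H2-D1 (0.36, edgeR adjusted p = 0.0561), Tap2 (0.40, edgeR adjusted p = 0.135) and Nlrc5 (1.17) did not pass. These means cover unlike populations: CD31+ cells had higher medians than cTEC at both ages for B2m (1863 against 544 CPM at P0 and 4409 against 2314 CPM at 4 weeks), H2-D1, H2-K1, Psmb8 and Tap2, and for Tap1 at 4 weeks.

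Within TEC the members split by compartment. At P0 9 of 10 differed between cTEC and mTEC, where 32.0% of genes did, with 4 higher in cTEC and 5 lower. Higher in cTEC were Psmb11 (4.40, SE 1.26, edgeR adjusted p = 0.00512), Psmb9 (1.24), Psmb10 (0.72) and Tap1 (0.63). Lower were Psmb8 (-3.57, SE 0.27, edgeR adjusted p = 5.25e-18), B2m (-1.91), H2-D1 (-1.90), H2-K1 (-1.84) and Nlrc5 (-6.32, edgeR adjusted p = 0.0042, from 0 to 0.60 CPM in cTEC and 3.95 to 30.7 CPM in mTEC). Psmb11 and Nlrc5 did not pass within either prefix (edgeR adjusted p = 0.0600 and 0.112 for Psmb11, 0.0534 and 0.0952 for Nlrc5), and Tap1 did not pass with other size factors, without the count filter or in DESeq2 (adjusted p = 0.0518 to 0.0680). The median over all genes was -0.44, so the members that were lower stood below it and those that were higher above it. At 4 weeks 7 differed (32.0% of genes): Psmb11 (8.02, SE 1.49, edgeR adjusted p = 2.82e-05), Psmb9 (1.09) and Psmb10 (0.50) were higher in cTEC, and B2m (-1.82), Psmb8 (-1.52), H2-K1 (-1.25) and H2-D1 (-1.16) lower. The 4-week call of Psmb10 was lost with other size factors (edgeR adjusted p = 0.0752), in DESeq2 (adjusted p = 0.0804) and within both prefixes (edgeR adjusted p = 0.0582 and 0.455), and neither Psmb9 nor Psmb10 passed within DFCK at either age (edgeR adjusted p = 0.0634 to 0.455). At 4 weeks H2-D1 did not pass within DFCK either (-0.89, edgeR adjusted p = 0.280). Psmb8 and B2m were lower in cTEC at both ages.

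At 4 weeks Psmb8 and B2m were higher in mTEChi than in mTEClo. Psmb8 was at 584, 664 and 826 CPM in mTEChi and at 297, 401 and 534 CPM in mTEClo, without overlap (0.73, SE 0.24, edgeR adjusted p = 0.0254). B2m was at 7504, 8637 and 10264 CPM against 4565, 5249 and 5719 CPM, also without overlap (0.74, SE 0.18, edgeR adjusted p = 0.00249). Within the prefixes TXCK and DFCK, the value of Psmb8 was 0.98 and 0.55 (edgeR adjusted p = 0.0538 and 0.439) and that of B2m 0.99 and 0.53 (edgeR adjusted p = 0.00419 and 0.264). These 2 of 10 members passed, where 19.0% of genes did, and the median over all genes was 0.26.

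The other genes of the pathway were counted from fixed lists. Of all genes, 10.0% were called with age in cTEC, 3.94% in mTEC and 10.4% in CD31+ cells. The share was 11.5% in Ly51+gp38- cells, 9.55% in gp38+CD26+ cells and 13.3% in gp38+CD26- cells. Of 11 other class I heavy chains, 4 rose with age in cTEC, 2 in mTEC, 6 each in CD31+, Ly51+gp38- and gp38+CD26+ cells and 7 in gp38+CD26- cells, and none fell. They included H2-Q6 (2.996) and H2-Q7 (2.82) in cTEC and H2-Q7 (5.31) in gp38+CD26- cells. Of 6 genes of peptide loading in the endoplasmic reticulum, 2, 0, 4, 4, 5 and 6 rose in the same order of populations, among them Tapbp, which holds the empty class I molecule to the transporter (1.34 in CD31+ cells, 2.40 in gp38+CD26+ cells), and Calr, a chaperone of the loading complex (0.97 in cTEC). In mTEC, where none of the 6 passed, the list's median was -0.04.

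Fewer of the other proteasome genes passed in each of the other populations than in gp38+CD26- cells. Of the 11 other subunits of the 20S core, 2 rose in cTEC (10.0% of all genes were called there), 3 in mTEC (3.94%), 1 in Ly51+gp38- cells (11.5%) and 9 in gp38+CD26- cells (13.3%), none passed in CD31+ cells and 1 fell in gp38+CD26+ cells. Psmb5, Psmb6 and Psmb7 all rose in gp38+CD26- cells and none of the 3 passed in any other population. Of 9 activators and assembly factors 3 rose in cTEC, among them Psme1, a subunit of the interferon-inducible cap (2.74). In mTEC 1 rose, in gp38+CD26- cells 6 rose and in CD31+ cells 1 fell. Psme1 was also 4.17 lower in cTEC than in mTEC at P0.

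Of 10 interferon-stimulated genes outside this pathway, 2 rose and 1 fell in cTEC, 3 rose in mTEC, 4 in CD31+, 3 in Ly51+gp38- and 3 in gp38+CD26- cells, and 6 rose and 1 fell in gp38+CD26+ cells. In cTEC Bst2, an antiviral tether, rose by 1.14 and Iigp1, an interferon-induced GTPase, fell by 1.28. At P0, 7 of the 10 were higher in cTEC than in mTEC, among them Isg15 (1.89), where 32.0% of all genes were called and most of those were lower. Of 15 regulators of class I genes, 1 rose and 2 fell in cTEC, 1 rose and 1 fell in mTEC, 2 rose in CD31+ cells, 4 rose and 2 fell in Ly51+gp38- cells, 2 rose and 1 fell in gp38+CD26+ cells and 3 rose and 1 fell in gp38+CD26- cells. The share of all genes called with age, given above, ran from 3.94% in mTEC to 13.3% in gp38+CD26- cells, so some of these counts lie near it. Irf1, an interferon-response factor, fell by 2.599 in gp38+CD26+ cells and by 2.41 in gp38+CD26- cells.

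Single cells placed the same members in time. In fibroblasts Psmb8 was at 0 CPM at E12.5 (0 UMIs, where 3 UMIs would be 0.204 CPM) and at 1.08 CPM at E13.5, and then at 25.02 and 26.5 CPM in the 2 E16.5 libraries, 39.6 and 34.8 CPM at P0 and 124.4 and 116 CPM at 4 weeks. Mural cells went from 0 CPM (3 UMIs would be 1.26 CPM) through 39.4 and 43.8 CPM at E16.5 to 112.6 and 99.7 CPM at 4 weeks, and endothelium from 1.23 CPM through 166.9 and 169 CPM to 436 and 502 CPM. In each class every later age lay above every earlier one, and endothelium was highest at each age. At E12.5 this order rests on few or no UMIs in 1 library, as does the E13.5 value of mural cells (0.556 CPM). The constitutive Psmb5 did not follow, with 329 CPM at E12.5 and 174 CPM in both 4-week libraries of fibroblasts.

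The heavy chains were followed over the same ages. H2-K1 in fibroblasts was at 0.88 and 0.85 CPM at E12.5 and E13.5, at 21.4 and 22.8 CPM at E16.5, at 93.7 and 78.7 CPM at P0 and at 1218 and 1056 CPM at 4 weeks. Endothelium was at 5.76 and 20.8 CPM at E12.5 and E13.5, at 522 and 547 CPM at E16.5 and at 3229 and 3537 CPM at 4 weeks. H2-D1 in endothelium was already at 126 and 150 CPM at E12.5 and E13.5, when fibroblasts held 1.49 and 2.44 CPM. B2m was present from the start, at 66.4 CPM in fibroblasts and 249 CPM in endothelium at E12.5. Psmb10 was also present at E12.5, at 23.7 CPM in fibroblasts, while Psmb9 there was at 0.14 CPM from 2 UMIs.

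**Figure D4:**
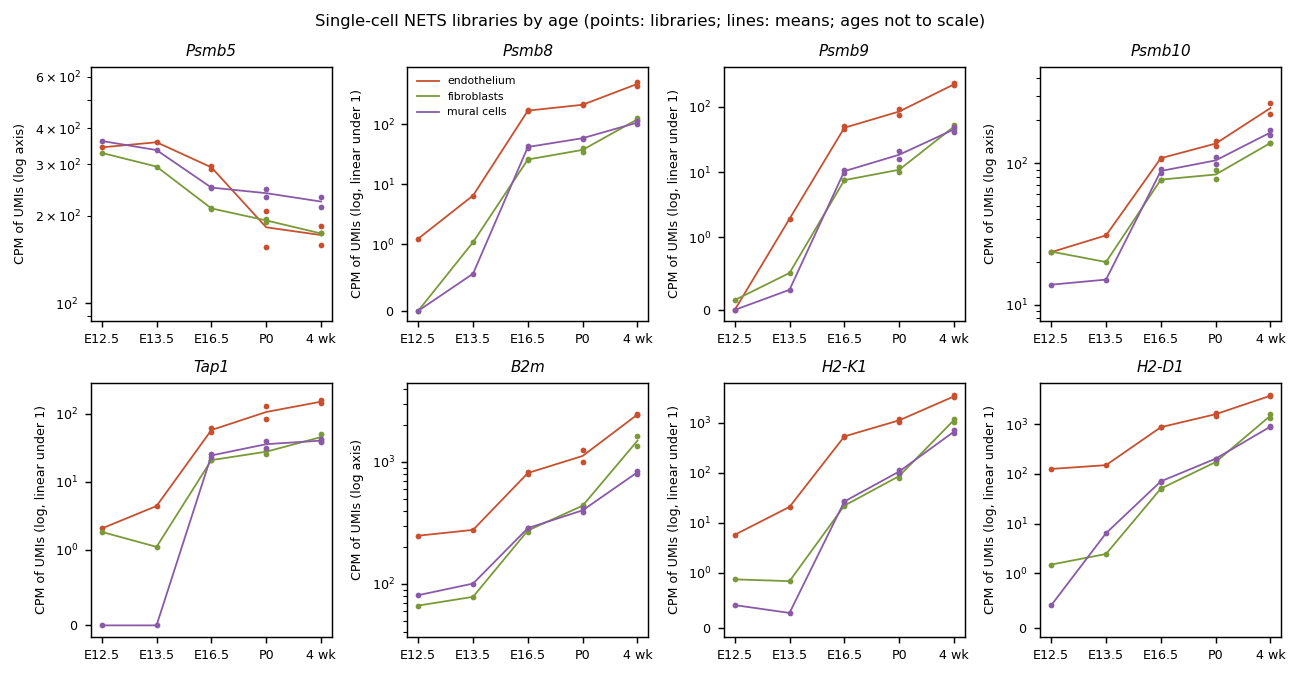
CPM of summed UMIs of 8 genes in endothelium, fibroblasts and mural cells of each single-cell library (points) over 5 ages, which are not spaced to scale; the vertical axis is logarithmic, and linear under 1. H2-K1 in fibroblasts went from 0.88 CPM at E12.5 to 1218 and 1056 CPM at 4 weeks, while Psmb5 went from 329 to 174 CPM.

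Tests used UMIs summed by subtype and library, in the 11 subtypes with at least 20 cells in every library. Over the 5 ages, 94 of 98 tests of members passed (edgeR quasi-likelihood test), where 58.4% of all gene and subtype tests passed. Since E12.5 and E13.5 had a single library apiece, their spread was taken from that of the later ages. From P0 to 4 weeks, 83 of the 98 passed and all were higher, where 26% passed in either direction. Psmb8, Tap2, B2m, H2-K1 and H2-D1 rose in 11 of 11 subtypes, Psmb9 in 10, Psmb10 in 9 and Tap1 in 6. Psmb11 passed the filter in 6 subtypes and Nlrc5 in 4, rising in 2 and 1, so their counts cover only part of the subtypes.

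The rise from P0 to 4 weeks was uneven over subtypes. For H2-K1 it was 4.22 in capsular fibroblasts CapFb1b (SE 0.09, edgeR adjusted p = 2.15e-15) and 1.39 in venous and lymphatic endothelium EnVL (SE 0.11, edgeR adjusted p = 5.76e-07), where the level was already high at P0. Among the subtypes tested, that of Psmb8 ran from 0.56 in vascular smooth muscle (SE 0.13, edgeR adjusted p = 0.0138) to 2.41 in CapFb2b (SE 0.20, edgeR adjusted p = 5.55e-08). CapFb4 was left out of that fit for its few cells at E12.5. In a fit on E16.5, P0 and 4 weeks alone its Psmb8 rose by 3.24 (SE 0.22, edgeR adjusted p = 4.56e-15). The subtypes' differences were not tested against each other. At 4 weeks Psmb8 was highest in arterial endothelium EnA (540 and 613 CPM), and among fibroblasts in medullary MedFb2b (283 and 363 CPM) and MedFb2a (206 and 210 CPM), against 66.1 and 67.6 CPM in CapFb1a. H2-K1 showed the same order of medullary over capsular fibroblasts, with 2700 and 2777 CPM in MedFb2a and 438 and 510 CPM in CapFb1a. EnA, MedFb2b and MedFb2a were not among the subtypes of the fit on all ages. Subtypes were defined from these same counts, so this order is a description.

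Psmb5 differed over the 5 ages in 11 of 11 subtypes and from P0 to 4 weeks in none (edgeR, lowest difference -0.23, highest 0.04). For the list counts that follow, the share of all gene and subtype tests that passed from P0 to 4 weeks was 26%, in either direction. Of the 33 tests of the 3 constitutive catalytic subunits from P0 to 4 weeks, 1 was higher at 4 weeks and 3 were lower. Psmb7 was higher in EnVL (1.38, edgeR adjusted p = 3.83e-05) and lower in CapFb1a and CapFb1b (-0.41 and -0.24), and Psmb6 was lower in EnC (-0.38, edgeR adjusted p = 0.0397). Of the 121 tests of the 11 other 20S subunits, 39 were lower at 4 weeks than at P0 and none was higher. The rises of 20S subunits in bulk gp38+CD26- cells were thus not seen in the fibroblast subtypes tested here. The cause of that difference was not tested. Among other heavy chains 66 of 97 tests were higher and among peptide loading genes 46 of 66, with 2 and 0 lower. Interferon-stimulated genes gave 41 tests higher, 10 lower and 57 that did not pass. Haematopoietic markers were higher in 24 of 58 tests and cTEC markers in 19 of 41, with Prss16 higher in 9 of 11 subtypes, although epithelial cells had been sorted away. Prss16 over all cells was 1.08 to 2.63 CPM at P0 and 6.56 to 15.6 CPM at 4 weeks. Psmb11 did not exceed 7.14 CPM in any class and library. The part of RNA from other cells in these differences was not tested.

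In newborn thymus the catalytic subunits were split between the annotated TEC subtypes. Psmb11 was highest in mature cTEC (McTEC, 320 ± 148.3 CPM, SD over 6 libraries, the 3 of each genotype pooled) and perinatal cTEC (PcTEC, 213 ± 78.4 CPM), with 15.7 ± 10.1 CPM in mature mTEC (MmTEC). Psmb8 was at 25.3 ± 8.40 CPM in McTEC, 30.8 ± 5.34 CPM in PcTEC and 186.7 ± 83.7 CPM in MmTEC, where the genotypes stood apart (203 to 291 CPM in wild-type and 104 to 128 CPM in Tbx1+/-Crkl+/- libraries), and the McTEC and MmTEC libraries did not overlap. Psmb9 and Psmb10 were highest in McTEC (359 ± 124.99 and 816 ± 321 CPM) and lower in MmTEC (112.2 ± 37.8 and 456 ± 142 CPM). Tap1 was highest in PcTEC (196 ± 19.1 CPM). The pooled means span genotypes with unequal means. Psmb11 in McTEC was at 401 ± 167.4 CPM in the 3 wild-type and 239 ± 85.5 CPM in the 3 Tbx1+/-Crkl+/- libraries (-0.78, edgeR adjusted p = 0.833), Psmb10 in McTEC differed by -0.77 (edgeR adjusted p = 0.833) and B2m in MmTEC by -0.85 (edgeR adjusted p = 0.325). In each genotype taken alone the highest mean of Psmb11, Psmb9 and Psmb10 was in McTEC and that of Tap1 in PcTEC. These levels are descriptions, since the subtypes were defined from the same counts.

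Psmb11 was found in cells that should lack it. A Psmb11 UMI was present in 52.3% of McTEC and in 7.67% of capillary endothelial cells (EnC) at median depths of 2534 and 2439 UMIs, and in 43.2% and 5.06% after each cell was thinned to 2000 UMIs. In MmTEC the share was 5.98%, and 2.58% after thinning, both below the shares in endothelium, so it cannot be told apart from background. NETS subtypes held 10.1 to 41.8 CPM of Psmb11, so the 15.7 CPM in MmTEC cannot be told apart from free RNA.

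Psmb8 was also high outside the epithelium. Cells annotated as thymocytes held 290 ± 83.0 CPM, MedFb2b 194 ± 73.1 CPM, EnVL 178.8 ± 82.7 CPM and EnC 153 ± 39.3 CPM, while the capsular fibroblast subtypes held 5.57 to 36.3 CPM. H2-K1 was at 2224 ± 524 CPM in MmTEC, 1782 ± 557 CPM in intertypical TEC, 1543 ± 545 CPM in EnVL and 1235 ± 138.9 CPM in McTEC, against 106 to 280 CPM in fibroblasts. B2m was at 2088 ± 709 CPM in MmTEC and 685 ± 146.2 CPM in McTEC. The highest mean of Nlrc5 was 33.6 CPM, in PAmTEC, where single libraries held 0 to 76.5 CPM from at most 4 UMIs. The newborn and age tables came from differently treated cells, the newborn ones having been fixed in an RNA preservative, and are not set against each other.

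**Figure D5:**
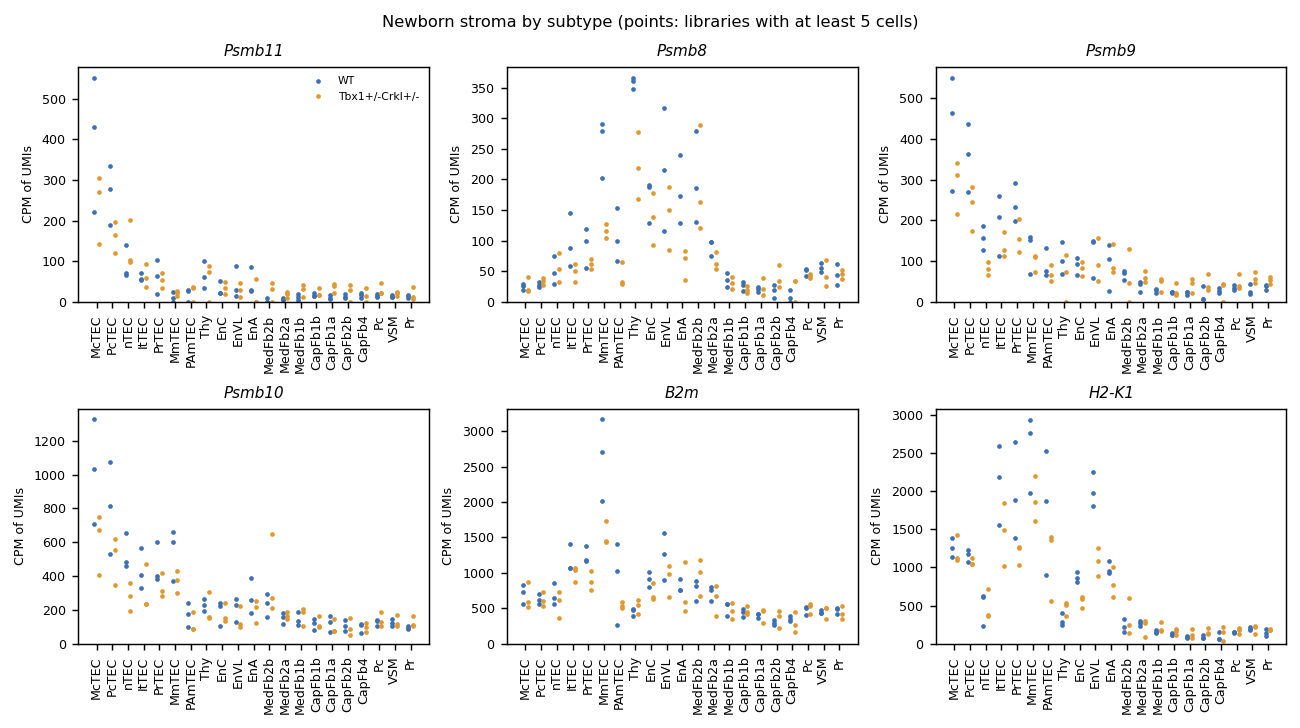
CPM of summed UMIs of Psmb11, Psmb8, Psmb9, Psmb10, B2m and H2-K1 in 21 annotated subtypes of newborn thymus, 1 point per library (wild-type blue, Tbx1+/-Crkl+/- orange). McTEC and PcTEC were highest for Psmb11, Psmb9 and Psmb10, and MmTEC for B2m and H2-K1, in means over both genotypes.

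No member passed the test between the genotypes. In the 18 subtypes with at least 20 cells in every library, 0 of 138 tests of members passed (edgeR quasi-likelihood test, lowest adjusted p = 0.169), where 0.0549% of all gene and subtype tests did, and 21 had an unadjusted p under 0.05, where 6.72% of all tests did. DESeq2 also called 0. In the 5 TEC subtypes 11 of 45 tests had an unadjusted p under 0.05 (7.3% of all genes' tests there), all lower in Tbx1+/-Crkl+/- cells, and 40 of the 45 fitted differences were below 0 with a median of -0.49. In the 13 other subtypes 10 of 93 had one (6.43% of all), 6 higher and 4 lower, with a median of 0.06. The difference between TEC and other subtypes was not tested, and subtypes of 1 library share their mice. No share of all genes below 0 is set beside the 40 of 45, and these values come from the same libraries.

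The largest of these by p was Psmb8 in MmTEC, at 203, 279 and 291 CPM in the wild-type libraries and 104, 128 and 116 CPM in the Tbx1+/-Crkl+/- libraries, which did not overlap (-1.21, SE 0.31, edgeR adjusted p = 0.169). It passed with no filter on low counts (-1.32, edgeR adjusted p = 0.0285) and without wild-type replicate 1 (-1.43, edgeR adjusted p = 0.0303). Psmb11 in PcTEC was at 188, 334 and 277 CPM against 163.5, 196 and 120 CPM, which overlapped (-0.79, SE 0.29, edgeR adjusted p = 0.648). The second lowest p of the 138 was for Psmb11 in pericytes (Pc), at 11.02, 18.6 and 13.7 CPM in wild-type against 22.6, 46.9 and 21.6 CPM in Tbx1+/-Crkl+/- libraries, which did not overlap (1.10, SE 0.32, edgeR adjusted p = 0.247). These levels are near those of the other NETS subtypes, and the part of free RNA in them was not tested. Depth moved with genotype, with median UMIs per cell of 2577, 3631 and 4686 in wild-type and 2551, 2391 and 2506 in Tbx1+/-Crkl+/- libraries, and its part in these values was not tested.

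The genes most like the members over the 14 bulk group means were found by Pearson's r of log2 CPM among 19611 genes, as a description. Nearest to Psmb11 were Neu2 (0.976), Pithd1 (0.960), Ankmy1 (0.959), Prss16 (0.951) and Itgb2 (0.950), of which Prss16 encodes a protease of cTEC. Nearest to Psmb8 were B2m (0.931), Rusc1 (0.925), Slfn2 (0.922), Ndufb3 (0.908) and Tmsb4x (0.902), so the first was another member. Nearest to Nlrc5 were Cadps2 (0.956), 9330175E14Rik (0.955), Pglyrp1 (0.945), Vac14 (0.942) and Nol7 (0.940), which rest on the low counts given above. The 14 group means share libraries' depth and sorting, and r carries no test here.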

How the data were processed

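The members and gene lists were chosen with earlier results of these data known. The deposited bulk table holds counts of reads per gene made by the authors from ultra-low-input libraries, for which the submitters' processing notes name STAR 2.5.3a and HTSeq with builds mm10 and GRCh38. Whether counting used strand is not given in the sources used here. The 2 deposited single-cell tables hold UMI counts per gene and cell from Cell Ranger 3.1.0, after the authors removed low-quality cells, doublets and contaminating clusters, and the deposited tables of labels hold the authors' subtype of each cell. Reads on no gene (7.81% to 29.4% of bulk reads) stayed out of library sizes.

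Bulk counts of 83 libraries with at least 1000000 gene counts were fitted with edgeR 4.0.16 (R 4.3.3) in 1 quasi-likelihood model over 14 groups, after filterByExpr and TMM scaling, with Benjamini-Hochberg adjustment over all genes and a threshold of 0.05. The labels give no pairing of bulk libraries, and nothing says that libraries came from separate mice, so p-values measure the spread between these libraries. Single-cell UMIs were summed by subtype and library (at least 20 cells in each) and fitted likewise, 1 model per subtype. Each SE beside an edgeR difference is that difference divided by the square root of its F statistic, so it is approximate where counts are near 0. CPM are counts per 1000000 gene counts. Ratios used a pseudocount of 0.5 counts and exact permutation tests (scipy 1.17.1). Shares of cells were also taken after thinning to 2000 UMIs, which leaves out shallower cells. The alternatives were RLE size factors, DESeq2 1.42.0, no filter, fits of the compared groups only, each prefix alone or as a covariate, all 84 libraries, at least 50 cells and left-out libraries, the last for 2 bulk groups only and added after the data were seen. Named list genes were up to 4 per list and comparison with the largest change among those called. Symbols were matched for 37693 of 39179 bulk gene identifiers. Model scripts were tested on simulated data.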

Additional observations from a re-analysis of the deposited data

Results flagged for a closer look

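Of 140 sets of libraries (10 members in 14 bulk groups), 13 held 1 library far from the rest by Dixon's criterion. For normally distributed values chance meets it in about 1 of 20. CPM near 0 need not be so distributed, and a set with only 1 library above 0 meets it by construction. For Psmb8 these were the 4-week mTEC library at 1257 CPM (next 707) and the 4-week CD31+ library at 474 CPM (next 673). Psmb9 gave a 4-week cTEC library at 199 CPM (next 258), a P0 gp38+CD26+ library at 7.27 CPM (next 2.94) and a 4-week mTEClo library at 153 CPM (next 105). Psmb11 gave a P0 CD31+ library at 15.3 CPM (next 1.63), a 4-week gp38+CD26+ library at 1.88 CPM (the other 4 at 0) and a 4-week mTEClo library at 31.8 CPM (next 11.8). Nlrc5 gave P0 libraries of cTEC at 0.60 CPM, gp38+CD26- at 0.73 CPM and mTEC at 30.7 CPM. Psmb10 gave a P0 cTEC library at 443 CPM (next 270) and Tap1 a P0 mTEC library at 279 CPM (next 219).

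In 5 cases the age difference itself differed between cell groups by the edgeR test. Psmb8 differed by 2.04 between cTEC and mTEC (edgeR adjusted p = 5.73e-05) and by 0.88 between TEC and NETS (edgeR adjusted p = 0.00335). Between TEC and NETS the values were -1.14 for Psmb9 (edgeR adjusted p = 0.000665), -2.09 for H2-K1 (edgeR adjusted p = 3.48e-18) and -2.004 for H2-D1 (edgeR adjusted p = 6.9e-10).

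The library labelled gp38+CD26+ at 4 weeks that was left out for its 25702 counts held 30 counts of Psmb11 (1167 CPM) and 295 of Prss16 (11478 CPM), against at most 1.88 CPM of Psmb11 in the other 5 libraries of its label. It held 10 counts of Epcam and 2 of Pdgfra.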

How the results depend on the processing

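No value that passed changed sign, while values that had not passed did in several families, as given below. Among ratios these were 5 differences between mTEChi and mTEClo. Psmb11 to Psmb8 went from 0.36 to -0.17 with a pseudocount of 5 and to -1.02 within DFCK. Psmb11 to Psmb5 went from 0.72 to -0.78 within DFCK. Over the bulk comparisons 1200 of 1304 values kept their direction and their side of the threshold, as did 2073 of 2148 over single-cell ages. The test over 5 ages has no direction, so only its side of the threshold counts there. Counts of members or genes called were judged apart, as kept if within 1.5 times. Of the ratio differences 140 stayed alike and 8 moved. This does not mean that ratio calls were kept within a prefix, where 3 libraries against 3 are too few for the exact permutation test to pass. Of 1428 genotype values 1305 were kept, 3 gained a call and 120 changed sign without passing. Thinning moved 37 of 40 newborn shares. Within prefix DFCK, with 3 libraries a group (2 for gp38+CD26+ at 4 weeks), members called numbered 3 for age in cTEC, 2 in mTEC, 1 in CD31+ and 4 in Ly51+gp38- cells, 4 between cTEC and mTEC at each age, 0 between mTEChi and mTEClo, 0 for the age difference of cTEC against mTEC and 2 for that of TEC against NETS; TXCK, with 3, gave 7, 6, 6 and 7 by age, 6 between cTEC and mTEC at each age, and 2, 1 and 3. The cause was not tested. Fitted on the compared groups only, cTEC against mTEC by age gave 5 (5.37% of genes). Leaving out 1 library gave 7 to 8 for gp38+CD26+ by age, 4 for mTEC by age, 7 to 8 for TEC against NETS and 7 for cTEC against mTEC at 4 weeks, 4 to 5 for TEC against NETS by age and 1 for cTEC against mTEC by age. Other bulk groups were not run without single libraries.

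In single cells, the 7 subtypes with at least 50 cells gave 59 of 62 tests called over 5 ages and 53 of 62 from P0 to 4 weeks (60.4% and 27.6% of all genes' tests there). E16.5, P0 and 4 weeks alone, added after seeing the data, gave 1.3e+02 from 17 subtypes (91% of tests, all but 13) and, over the 11 subtypes of the fit on 8 libraries, 83 (89.2%). Leaving out 1 library gave 90 to 92 and 72 to 81. For genotype, no filter gave 1 (Psmb8 in MmTEC), and leaving out 1 library gave 0 to 2, the 2 without wild-type replicate 1 being Psmb8 in MmTEC and H2-K1 in CapFb4. Replicate numbers did not pair the libraries (same-number r 0.174, 0.027 and -0.412 for genotype), and with the replicate number as a block 94, 82 and 0 tests were called over ages, from P0 to 4 weeks and for genotype.

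Genes called over all genes fell by over 1.5 times within prefixes TXCK and DFCK: from 2046 to 843 and 279 (age in cTEC), 804 to 325 and 87 (mTEC), 2130 to 868 and 408 (CD31+), 2356 to 762 and 387 (Ly51+gp38-), 1949 to 893 and 269 (gp38+CD26+), 2725 to 1063 and 728 (gp38+CD26-), 6537 to 3048 and 1759 and 6539 to 3051 and 1735 (cTEC against mTEC at P0 and 4 weeks), 3873 to 889 and 1062 (mTEChi against mTEClo), 582 (2.85% of genes) to 0.922% of genes and to 53 genes (cTEC against mTEC by age) and 1318 to 612 and 242 (TEC against NETS by age). TEC against NETS fell so within DFCK, from 8072 to 5189 at P0 and 8703 to 5726 at 4 weeks. With only the compared groups fitted, counts were 583 for CD31+ and 1429 for Ly51+gp38- cells by age, 3527 for cTEC against mTEC at 4 weeks, 2531 for mTEChi against mTEClo and 928 for cTEC against mTEC by age. DESeq2 gave 1239 for mTEC, 1119 for cTEC against mTEC and 2688 for TEC against NETS by age, and mTEC by age without the 4-week replicate 3 gave 529. With all 84 libraries, Psmb11 in gp38+CD26+ cells passed by age (11.06, edgeR adjusted p = 0.0182) through the library of 25702 counts. Psmb11 and Nlrc5 were at 0 in libraries of several groups, where depth limits what can be seen. Library numbers lie multiples of 12 apart between the groups of an age, which the labels do not explain. Libraries of the same position deviated together weakly at most (r from -0.07 to 0.09, none of 251 pairs above 0.1). Their median r, 0.020 at P0 and 0.011 at 4 weeks, was above that of other pairs, at most 0.0017. With the position as a replicate block, chosen after seeing the data, members called were 8, 8, 9, 7, 2, 1 and 4 against 8, 7, 9, 7, 2, 1 and 4 (TEC against NETS and cTEC against mTEC at P0 and 4 weeks, mTEChi against mTEClo, and both differences by age), H2-D1 for TEC against NETS at 4 weeks being the gain (0.38, edgeR adjusted p = 0.0443).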
